A study of Mus musculus with 18 samples.

Results

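Glycolysis and the pentose phosphate pathway were followed through 33 genes: transporters that carry glucose and lactate, the enzymes between glucose and pyruvate, lactate dehydrogenase, the pyruvate dehydrogenase complex with a kinase that switches it off, and enzymes of the pentose phosphate branch and of galactose use. They were measured on 18 Affymetrix M430v2 arrays of sorted mouse CD4 T cells. A gene was represented by the probe set annotated with its symbol alone and, of several, by whichever was brightest on average across the 18 arrays. Of the 33 genes 29 had such a probe set, among 18194 genes in all, and 28 of the 29 passed a filter on dim signals that 12274 genes passed. Gpi1, Eno1, G6pdx and Galk1 were not analysed here.

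The arrays fall into 6 groups of 3. Fat Treg and fat Tconv were CD25+ and CD25- CD4+ cells from the epididymal fat of male C57BL/6 mice of 25 to 35 weeks, with 8 to 10 mice pooled per array. Thymus Treg and thymus Tconv came from BDC2.5/NOD mice aged 4 to 6 weeks, whose T cells carry a transgenic receptor, and lymph node Treg and lymph node Tconv from pooled cervical, inguinal and mesenteric nodes of C57BL/6 mice of 32 to 36 weeks, each with 3 to 6 mice per array. The labels give the sex of the fat donors only. Every sort removed cells with B220, CD11b or CD8a, the fat sort also asked for TCRb, and the thymus was depleted of CD8a cells beforehand. CD25 is also carried by activated T cells, so the sort marks Treg by a surface protein and not by Foxp3 itself. Since mice were pooled, an SD or a p-value measures the spread between pools. Thymus and lymph node mice differ in strain and age as well as in tissue, and these cannot be told apart. By runs of consecutive scan numbers, thymus arrays lie in runs 1 to 3 and lymph node arrays in runs 3 to 5. The part of the run in differences in level between thymus and lymph node was not tested.

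Glucose enters a T cell through facilitative transporters such as Glut1 and Glut3, is trapped by hexokinase, and is split and oxidised to pyruvate. Pyruvate is reduced to lactate, which leaves through monocarboxylate transporters, or enters mitochondria through pyruvate dehydrogenase, which pyruvate dehydrogenase kinases inhibit. The pentose phosphate branch yields NADPH and ribose. Activated and dividing T cells are known for high glycolysis, and resting and regulatory T cells for a greater reliance on the oxidation of fatty acids and pyruvate in mitochondria. HIF-1 and Myc are known activators of many of these genes.

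The promoters of 6 of the genes are shown because their transcripts gave the results below. Hk2 differed between Treg and Tconv in every tissue, Slc2a1 was high in fat, Tpi1 and Pgam1 were high in thymus Treg, Ldha served as a gene with little difference between Treg and Tconv, and Pdk1 varied most over the groups. Each sequence is RefSeq's on GRCm38.p6, 250 bases before to 50 after the annotated start, read 5′ to 3′ on the gene's strand. Capitals mark ACGTG or GCGTG on either strand, so that CACGT and CACGC are these motifs on the other strand. ACGTG and GCGTG are the core letters of a HIF-1 site, and CACGTG, the E-box that Myc and its partners bind, holds ACGTG on both strands.
Hk2 (chr6:82774405-82774704, minus strand): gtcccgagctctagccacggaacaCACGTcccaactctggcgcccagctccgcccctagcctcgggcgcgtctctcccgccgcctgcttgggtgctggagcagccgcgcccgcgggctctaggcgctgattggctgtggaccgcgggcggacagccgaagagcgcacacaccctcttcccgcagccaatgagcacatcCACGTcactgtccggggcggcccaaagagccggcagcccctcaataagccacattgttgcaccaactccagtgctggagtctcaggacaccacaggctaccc
Slc2a1 (chr4:119108495-119108794, plus strand): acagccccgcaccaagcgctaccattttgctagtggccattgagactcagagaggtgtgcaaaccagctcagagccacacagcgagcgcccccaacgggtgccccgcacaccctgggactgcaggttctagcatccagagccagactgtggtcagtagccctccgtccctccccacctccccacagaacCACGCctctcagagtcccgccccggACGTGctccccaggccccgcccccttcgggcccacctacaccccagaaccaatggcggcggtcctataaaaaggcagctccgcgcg
Tpi1 (chr6:124814109-124814408, minus strand): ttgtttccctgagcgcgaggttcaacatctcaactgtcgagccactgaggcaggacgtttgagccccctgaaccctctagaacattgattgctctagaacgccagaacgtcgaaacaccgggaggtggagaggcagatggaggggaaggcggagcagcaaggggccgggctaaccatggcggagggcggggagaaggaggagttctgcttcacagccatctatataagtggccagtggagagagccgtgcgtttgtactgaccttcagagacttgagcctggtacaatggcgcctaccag
Pgam1 (chr19:41911621-41911920, plus strand): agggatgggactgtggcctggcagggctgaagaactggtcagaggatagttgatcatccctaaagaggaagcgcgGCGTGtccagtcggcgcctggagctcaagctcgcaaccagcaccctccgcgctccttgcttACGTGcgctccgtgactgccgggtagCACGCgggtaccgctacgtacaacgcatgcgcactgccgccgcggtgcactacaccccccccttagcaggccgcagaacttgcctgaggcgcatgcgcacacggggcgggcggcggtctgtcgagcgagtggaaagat
Ldha (chr7:46845554-46845853, plus strand): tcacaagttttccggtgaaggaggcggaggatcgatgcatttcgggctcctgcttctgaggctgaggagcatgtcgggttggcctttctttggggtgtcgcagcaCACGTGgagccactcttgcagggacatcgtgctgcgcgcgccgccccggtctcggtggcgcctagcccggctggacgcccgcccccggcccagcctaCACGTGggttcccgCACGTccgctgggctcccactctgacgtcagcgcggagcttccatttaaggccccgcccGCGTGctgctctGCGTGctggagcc
Pdk1 (chr2:71872974-71873273, plus strand): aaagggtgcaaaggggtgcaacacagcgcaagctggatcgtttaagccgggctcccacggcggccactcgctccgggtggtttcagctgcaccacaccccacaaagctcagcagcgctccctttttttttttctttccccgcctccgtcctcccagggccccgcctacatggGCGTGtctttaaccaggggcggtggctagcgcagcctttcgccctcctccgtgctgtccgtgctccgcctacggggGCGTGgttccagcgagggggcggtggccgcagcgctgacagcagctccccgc

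Ldha and Pdk1 have a further annotated promoter each that is not shown. The Ldha window holds 2 copies of CACGTG, the Hk2 window 2 of ACGTG, and the Tpi1 window neither motif. Of the 33 genes 28 matched the promoter table, with 40 promoters. ACGTG or GCGTG stood in 31 of the 40 (77.5%), against 43.8% of all 32851 promoters of the same length. ACGTG alone stood in 45.0%, against 19.6%, GCGTG in 57.5%, against 32.4%, and CACGTG in 10.0%, against 7.15%. Some windows of one gene overlap, as in Aldoa and Pfkm, so a motif can be counted again. Both motifs hold the letters CG, and all promoters were not matched to these for base content. These are letter matches and say nothing of binding in these cells.

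Foxp3, the regulator of the Treg lineage, had a mean intensity of 1315 in fat Treg and 75.7 in fat Tconv, of 810 in thymus Treg and 35.9 in thymus Tconv, and of 972 in lymph node Treg and 48.1 in lymph node Tconv. The fat arrays also carried transcripts of other cells. The summed intensity of 16 macrophage and monocyte markers was 1544 to 4302 in fat Treg and 1205 to 3074 in fat Tconv, against 913 to 1118 in lymph node Treg and 948 to 1161 in lymph node Tconv. Of the 13 that passed the filter, 11 were higher in fat than in lymph node Treg and 6 in fat than in lymph node Tconv. Of all genes 16.7% and 12.5% were. In each fat group 13 had a mean above the filter, and in each lymph node and thymus group 6. Some thus passed only through fat, where they are high, so these counts are partly fixed by the filter. Of 9 stromal and endothelial markers that passed 8 were higher and 1 lower in fat Treg, and 7 were higher in fat Tconv. Those with a group mean above the filter numbered 7 in fat Treg and 8 in fat Tconv, against 4 in lymph node Treg and 3 in lymph node Tconv. Of 3 adipocyte markers that passed 2 were higher in each, with Fabp4, the fatty acid carrier of fat cells and macrophages, at 2085 in fat Treg and 1984 in fat Tconv, against 8.51 in lymph node Treg and 7.89 in lymph node Tconv. Adipocyte markers above the filter numbered 3 in each fat group and 1 in every other group, so this count is likewise partly fixed. Markers of these 3 lists had no call between fat Treg and fat Tconv in limma's test, and the macrophage markers had a median log2 difference of 0.48 there. NK and cytotoxic markers summed to 669 to 835 in fat Treg and 4512 to 4982 in fat Tconv, mostly Nkg7, a gene of cytotoxic granules, at 451 and 4152, and to 1736 to 7844 in thymus Treg and 1167 to 1900 in thymus Tconv, mostly the granzyme gene Gzma. B cell markers summed to 547 to 640.2 in fat Treg and 670.1 to 784 in fat Tconv, against 1089.9 to 1544 in lymph node Treg and 841 to 1029 in lymph node Tconv, with Cd79a below the filter in every group. Of the 5 that passed, Bank1 and Cd79b were higher in lymph node Treg than in lymph node Tconv, and these 2 and Ms4a1 were lower in fat than in lymph node Treg. The part of other cells in the fat and lymph node results was not tested.

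Thymus Treg replicate 3 stood apart from the other arrays of its group. Its 21 cell division genes summed to 16007, against 33888 and 34145 in replicates 1 and 2 of thymus Treg and 18643 to 23454 in thymus Tconv, and its immature thymocyte markers to 2532, against 5654 and 5457. The cell division sum was 7781 to 8011 in fat Treg and 10442 to 14674 in fat Tconv, and 8746 to 10393 in lymph node Treg and 7106 to 9784 in lymph node Tconv. Values in thymus are given below with and without replicate 3 where they depend on it.

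The genes varied over the groups about as much as genes in general. The ratio of the highest to the lowest group mean was 1.24 to 12.0, with a median of 1.66, against a median of 1.6 over all genes tested. Thymus Treg was the highest group for 13 of the 28 genes, where 17.2% of all genes had their highest mean there. Fat Treg was highest for 6 genes (25.8% of all genes), fat Tconv for 4 (14%), lymph node Treg for 2 (9.92%), thymus Tconv for 2 (17.3%) and lymph node Tconv for 1 (15.8%). Lymph node Tconv was the lowest group for 9 genes, where 9.7% of all genes had their lowest mean there.

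**Figure D1:**
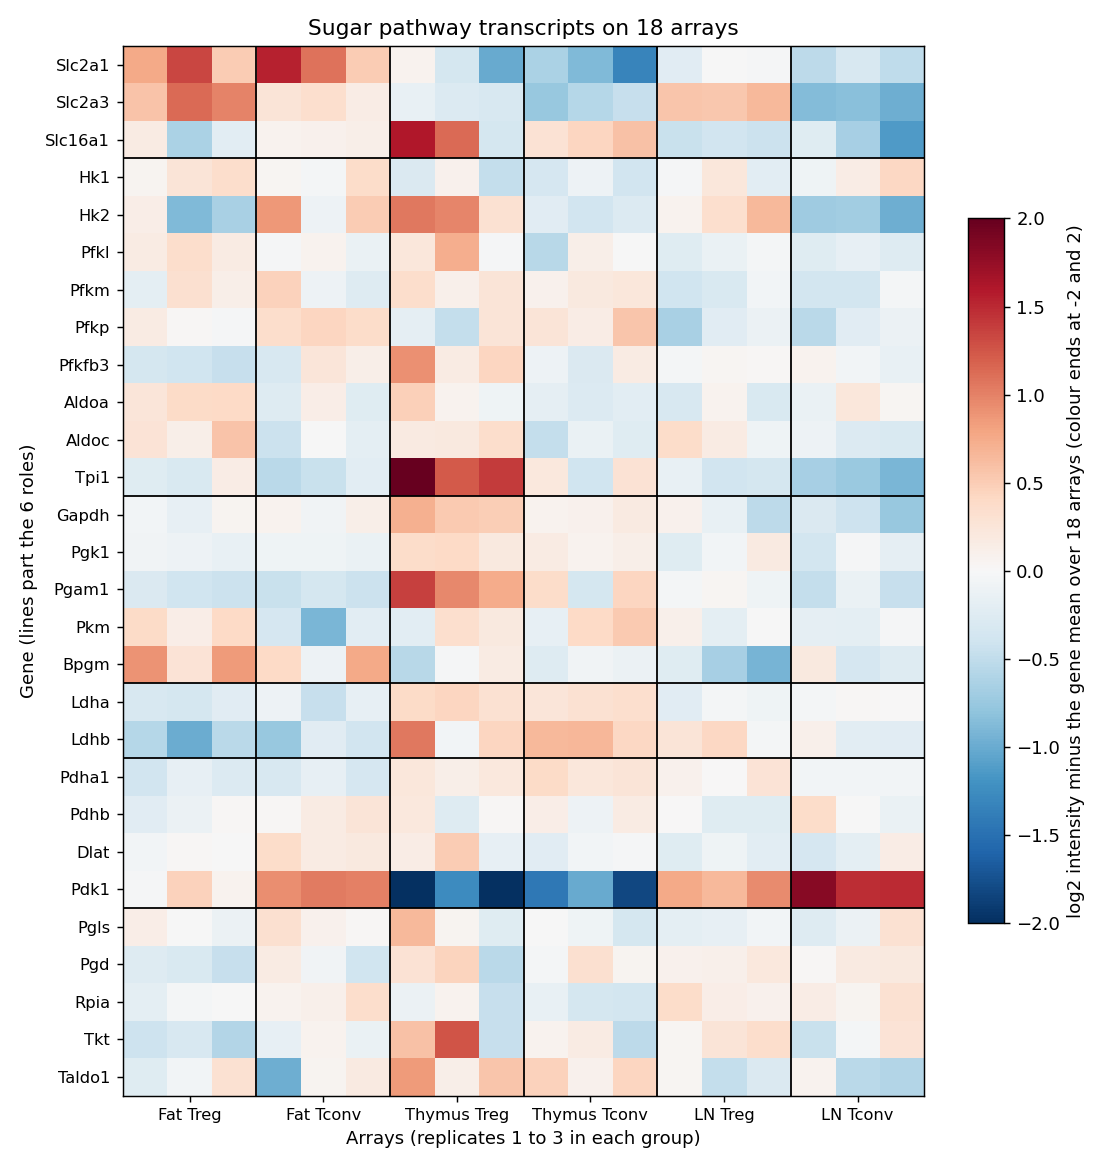
Log2 intensity of the 28 tested genes (rows, parted by role) on the 18 arrays (columns, 3 per group), each minus the gene's mean over the arrays, in colour from -2 to 2. Pdk1 is lowest in the thymus columns, and Tpi1 and Pgam1 are highest in the 3 thymus Treg columns.

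Treg of each tissue were set against Tconv of the same tissue. In fat, Slc2a3, Aldoc and Pkm were higher in Treg and Hk2 was lower, 4 of 28 genes (14.3%), where 12.8% of all 12274 genes were called. Calls in one direction made up 6.90% (higher) and 5.95% (lower) of all genes. In the thymus Hk2, Tpi1 and Pgam1 were higher in Treg and none was lower, 10.7% of the 28 against 5.67% of all genes (3.50% higher and 2.17% lower). In lymph node Slc2a3 and Hk2 were higher and none was lower, 7.14% against 4.68% of all genes (3.32% higher and 1.36% lower). Calls are limma's on log2 intensity, with p-values adjusted over all 12274 genes by the Benjamini-Hochberg method and a threshold of 0.05. In lymph node the arrays of the 2 cell types did not overlap for 9 of the 28 genes, where 18.2% of all genes had no overlap, in the thymus 9 (20.2%) and in fat 11 (27.4%). At an unadjusted p under 0.05, 9 genes were higher and 2 lower in thymus Treg, where 8.83% of all genes were higher and 7.38% lower, and 4 were higher and 1 lower in lymph node Treg, where 7.23% and 4.86% of all genes were. The median log2 difference of the 28 genes was -0.08 in fat, 0.23 in the thymus and 0.09 in lymph node, beside -0.02 in the thymus and -0.03 in lymph node over all genes.

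Treg and Tconv arrays of the same number varied together within a tissue, and with the number as a block more genes were called. In fat 4 were higher and 3 lower, in the thymus 8 higher and 2 lower, and in lymph node 2 higher and 2 lower, among 2844, 1672 and 1098 genes called in all. Without thymus Treg replicate 3 the thymus count was 6 higher and 1 lower, and without replicate 1 of thymus Treg it was 1 higher. The fat count of higher genes fell to 1 without fat Treg replicate 1 or replicate 3, and that of lymph node to 1 without lymph node Treg replicate 2 or 3 or lymph node Tconv replicate 3. Over the fits that each left out 1 array the calls among all genes moved too. They numbered 472 to 1103 in the thymus, 1213 to 1696 in fat and 405 to 460 in lymph node.

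**Figure D2:**
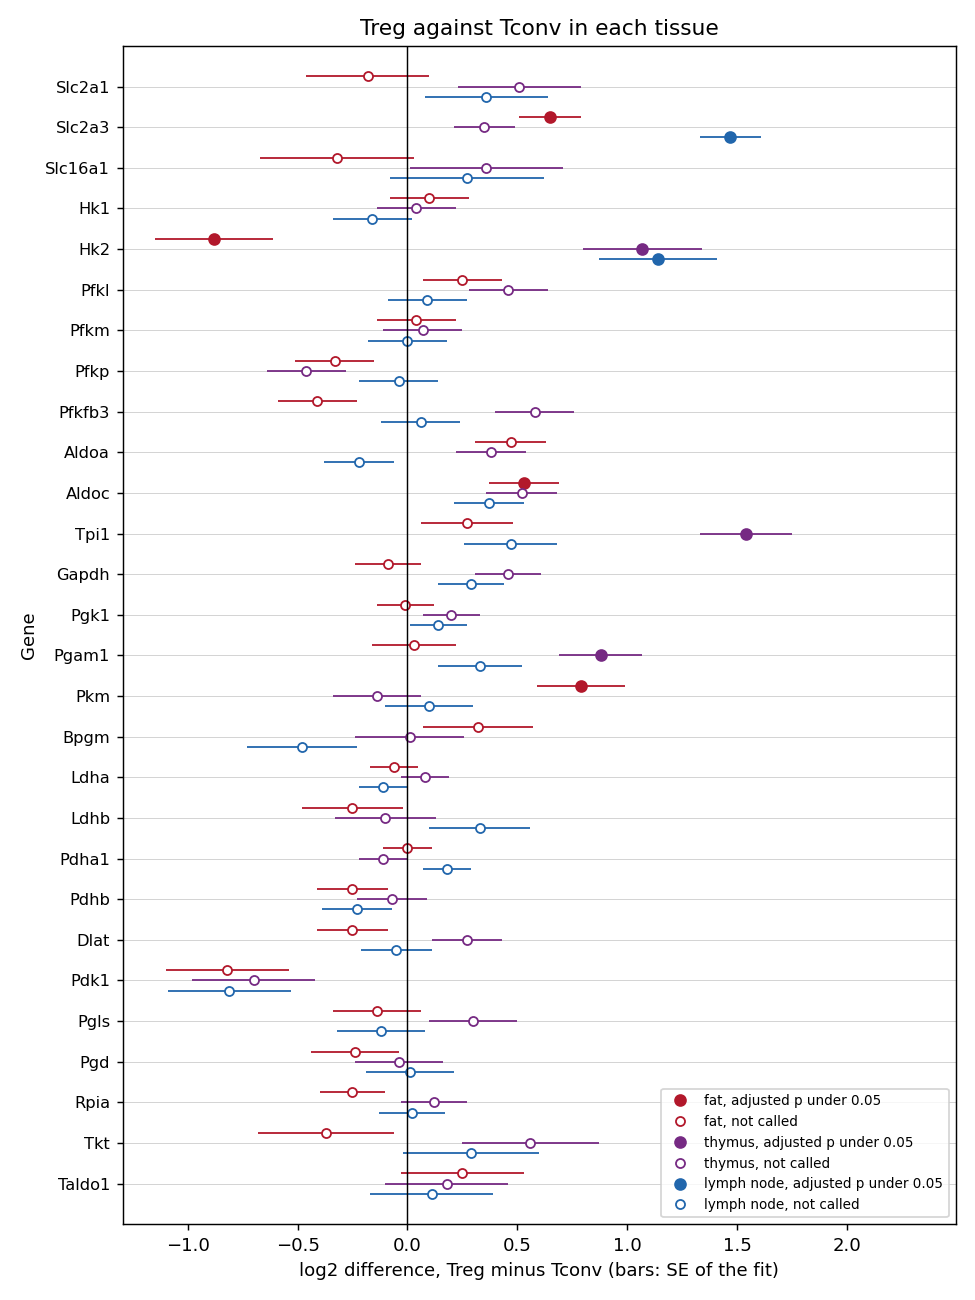
Log2 difference between Treg and Tconv (horizontal axis) of the 28 genes in fat, thymus and lymph node, with the SE of the fit as bars and filled points for adjusted p under 0.05. Hk2 lies at -0.88 in fat, at 1.07 in the thymus and at 1.14 in lymph node, and Pdk1 between -0.82 and -0.70 in the 3 tissues without a call.

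Fat was set against lymph node within each cell type, taking the median change over all genes as 0. In Treg, Bpgm, Slc2a1 and Aldoa were higher in fat and Ldhb, Hk2 and Pdha1 lower, 6 of 28 genes (21.4%), where 35.6% of all genes were called, 16.7% higher and 18.9% lower. In Tconv, Slc2a1, Hk2, Slc2a3, Pfkp and Gapdh were higher in fat and none was lower, 17.9% against 23.4% of all genes (12.5% higher and 10.9% lower). Fat and lymph node arrays share runs of scan numbers, and with the run as a block 13 of the 28 genes were called in Treg (46.4%, against 46.1% of all genes) and 9 in Tconv (32.1%, against 33%). In Treg these added Pfkl, Pfkp and Pkm as higher and Pfkfb3, Pdk1, Pgd and Tkt as lower in fat, and in Tconv Tpi1, Bpgm and Dlat as higher and Pdk1 as lower. With only the compared groups in the fit 9 were called in Treg (32.1%, against 36.6%) and 7 in Tconv (25%, against 18.8%). Groups did not overlap for 16 of the 28 genes in Treg, where 50.7% of all genes did not, and for 13 in Tconv, where 37.4% did not. At an unadjusted p under 0.05 no gene was lower in fat Tconv either (0 of 28, where 16.8% of all genes were). The median log2 difference of the 28 was 0.17 in Treg and 0.12 in Tconv.

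**Figure D3:**
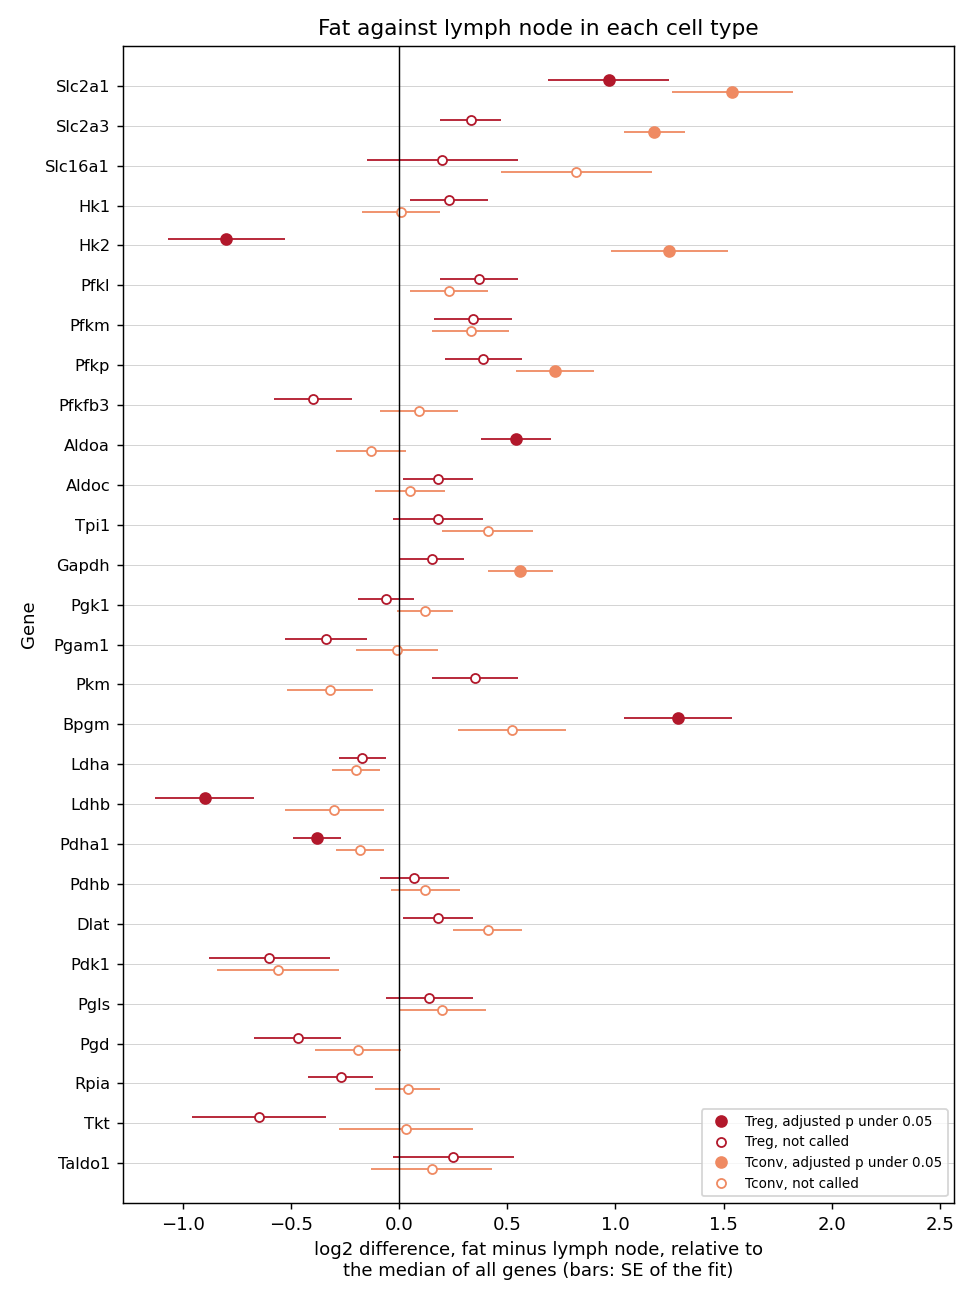
Log2 difference between fat and lymph node, relative to the median of all genes (horizontal axis), of the 28 genes in Treg and in Tconv, with the SE of the fit as bars and filled points for adjusted p under 0.05. Slc2a1 lies to the right in both cell types (0.97 and 1.54), and Hk2 to the left in Treg (-0.80) and to the right in Tconv (1.25).

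The difference of the Treg effect between tissues was tested as an interaction. It was called between fat and lymph node for Hk2 and Slc2a3, 2 of 28 genes (7.14%) and both lower, against 5.39% of all genes, 2.48% higher and 2.92% lower. With the replicate block Aldoa, Pkm and Bpgm were called higher too. Between thymus and lymph node it was called for Slc2a3 alone of the 28 genes (3.57%), against 0.342% of all genes, 0.171% in each direction. The replicate block added Tpi1.

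The transporter Slc2a3 encodes Glut3, a transporter of high affinity (chr6:122727809-122802363, GRCm38.p6). Its intensity was 1891, 2807 and 2522 in fat Treg, against 1531, 1602 and 1409 in fat Tconv. In the thymus it was 1152, 1057 and 1023 in Treg, against 756, 856 and 929.9 in Tconv, and in lymph node 1871, 1854 and 2003 in Treg, against 695, 717 and 649 in Tconv. Every Treg array lay above every Tconv array of its tissue. The difference was 2.78-fold in lymph node (log2 1.47 ± 0.14, SE; limma adjusted p = 2.28e-06) and 1.57-fold in fat (0.65 ± 0.14; adjusted p = 0.0036, but 0.05 with only the fat arrays in the fit). It did not pass the test in thymus (0.35 ± 0.14; adjusted p = 0.197). Set against lymph node, the Treg effect was smaller by 0.82 ± 0.20 in fat (-0.82; adjusted p = 0.0175) and by 1.12 ± 0.20 in the thymus (-1.12; adjusted p = 0.0151). The first call was lost on the deposited scale (adjusted p = 0.0649) and the second without thymus Tconv replicate 2 (0.0573) or replicate 3 (0.0534), and both were lost with each array centred on its median (0.0888 and 0.064) and with the mean of the gene's 4 probe sets (0.214 and 0.0971). Fat and lymph node Tconv did not overlap and differed 2.26-fold (1.18 ± 0.14; adjusted p = 9.97e-06), while fat and lymph node Treg overlapped (0.33 ± 0.14; adjusted p = 0.08, and 0.0116 without fat Treg replicate 1). A further probe set of Slc2a3 of like brightness gave 0.61 in fat, 0.32 in the thymus and 1.45 in lymph node between Treg and Tconv, and 2 dim ones gave -0.21 to 0.12.

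Slc2a1 encodes Glut1, the transporter that activated T cells raise (chr4:119108745-119137330). It measured 415, 619 and 350.2 in fat Treg, against 209, 245 and 240.0 in lymph node Treg, a 1.96-fold difference (log2 0.97 ± 0.28; adjusted p = 0.0125). In fat Tconv it measured 713, 522 and 350.1, against 171, 196 and 172 in lymph node Tconv, 2.90-fold apart (1.54 ± 0.28; adjusted p = 0.000684). All 6 fat arrays lay above all 6 lymph node arrays. Within the 3 runs of consecutive scan numbers that hold both tissues the difference was 0.75 to 1.34 in Treg and 1.03 to 2.05 in Tconv. In fat replicate 2, whose macrophage marker sums were the lowest of the fat arrays (1544 in Treg and 1205 in Tconv), it was 1.34 in Treg and 1.41 in Tconv. The largest difference in Tconv, 2.05, was that of fat Tconv replicate 1, whose macrophage (3074), stromal (5937) and adipocyte (3689) marker sums were the highest of fat Tconv. These are single arrays, and the part of other cells in the Slc2a1 results was not tested. Without fat Treg replicate 2 the call in Treg was lost (adjusted p = 0.0684). The other 2 probe sets gave 0.21 and 0.90 in Treg and 0.39 and 1.24 in Tconv. Differences within runs and of further probe sets, here and below, are not set against the median of all genes, which lay at -0.01 in Treg and -0.04 in Tconv. Between Treg and Tconv Slc2a1 was not called in any tissue, at -0.18 ± 0.28 in fat, 0.51 ± 0.28 in the thymus, where arrays read 257, 191 and 122 in Treg and 158, 133 and 97.9 in Tconv, and 0.36 ± 0.28 in lymph node. In bulk samples, fewer cells that express a gene and less RNA per cell cannot be told apart.

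The lactate transporters had no call with all arrays. Arrays of Slc16a1, Pfkfb3, Ldha, Tkt and Pdk1 are given here and below although the genes were not called, and were chosen after their values were seen. Slc16a1, which encodes Mct1, read 783, 563 and 202 in thymus Treg, where replicate 3 was the low array, against 316, 348 and 386 in thymus Tconv. The difference was 0.36 ± 0.35 (adjusted p = 0.735) with all arrays and 0.93 (adjusted p = 0.0207) without replicate 3. In fat Tconv it lay above lymph node Tconv on every array by 0.82 ± 0.35 (adjusted p = 0.104, and 0.0309 with only these groups in the fit). Slc16a3, which encodes the lactate exporter Mct4, was below the filter in every group, at 16.9 to 31.0 on the 18 arrays.

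Hexokinase 2, read by a single probe set, is the inducible form of the enzyme that traps glucose in the cell (Hk2, chr6:82725025-82774454). In fat it read 207, 104 and 122 in Treg, against 346, 176 and 269.5 in Tconv. In the thymus it read 397, 376 and 234 in Treg, against 163, 146 and 158 in Tconv, and in lymph node 199, 239 and 299 in Treg, against 116, 118 and 96.5 in Tconv. The Treg arrays were the high ones in thymus and lymph node, with no overlap, and the low ones in fat, where 1 Treg array lay above 1 Tconv array. Hk2 was 1.85-fold lower in fat Treg (log2 -0.88 ± 0.27; adjusted p = 0.0386), 2.10-fold higher in thymus Treg (1.07 ± 0.27; adjusted p = 0.0234) and 2.21-fold higher in lymph node Treg (1.14 ± 0.27; adjusted p = 0.0176). Within the pairs of one replicate number the difference was -0.74, -0.77 and -1.15 in fat, 1.29, 1.37 and 0.57 in the thymus and 0.77, 1.02 and 1.63 in lymph node, so all 3 pairs of a tissue had one sign.

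The interaction of Hk2 between fat and lymph node was -2.03 ± 0.38 (adjusted p = 0.0029), and it remained called in each alternative and without each of the 12 arrays in turn (-2.32 to -1.80; highest adjusted p = 0.0107). Between thymus and lymph node it was -0.07 ± 0.38. Hk2 was 2.38-fold higher in fat than in lymph node Tconv (1.25 ± 0.27; adjusted p = 0.00264) and 1.75-fold lower in fat than in lymph node Treg (-0.80 ± 0.27; adjusted p = 0.0283), where 1 fat array lay above 1 lymph node array. These comparisons share arrays with the interaction. The cell division sum was likewise lower in fat Treg than in fat Tconv (7781 to 8011 against 10442 to 14674) and was highest in replicates 1 and 2 of thymus Treg. Of its 21 genes 3 were called lower in fat Treg than in fat Tconv. Its part in the Hk2 results was not tested.

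The single-tissue calls of Hk2 were less firm than the interaction. In fat the call was lost without fat Treg replicate 2 (adjusted p = 0.181) or 3 (0.14) and without fat Tconv replicate 1 (0.149) or 3 (0.116), with no filter on dim genes (0.0513) and with only the fat arrays in the fit (0.137). In the thymus it was lost without Treg replicate 1 (0.114) or 2 (0.0985) and without Tconv replicate 1 (0.059), 2 (0.0928) or 3 (0.0621). In lymph node it was lost without Treg replicate 2 (0.0581) or 3 (0.0984) or without Tconv replicate 3 (0.0893). Between fat and lymph node Treg it was lost without lymph node Treg replicate 2 (0.0662) or 3 (0.0949) and without fat Treg replicate 2 (0.146) or 3 (0.087). The sign held in all of these. Hk1, the widely expressed hexokinase, was not called anywhere, with group means of 300 to 423 and differences between Treg and Tconv of -0.16 to 0.10.

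**Figure D4:**
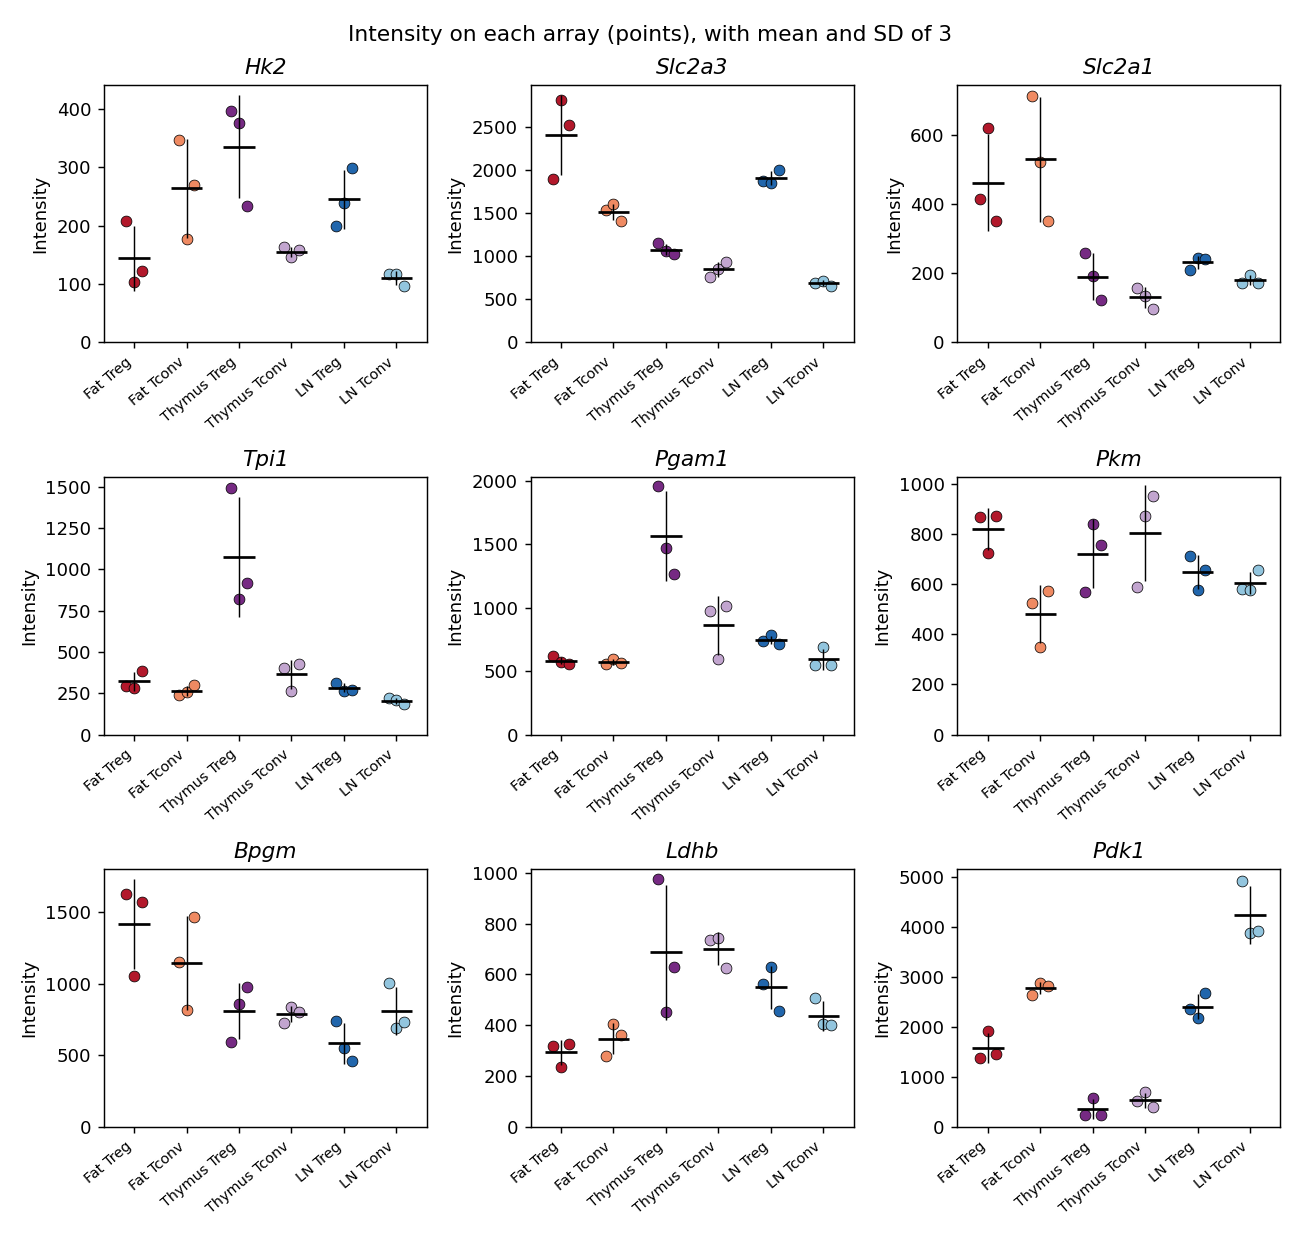
Intensity of 9 genes (one panel each, linear vertical axis from 0) on the 3 arrays of each group, with the mean as a horizontal and the SD as a vertical line (LN, lymph node). Hk2 is higher in Treg than Tconv in thymus and lymph node and lower in fat, and the Slc2a1 points of fat lie above those of lymph node.

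Of the upper glycolysis genes beyond hexokinase, that of triosephosphate isomerase had the largest called difference between Treg and Tconv. Tpi1, which interconverts the products of aldolase (chr6:124810586-124814158), read 1492, 818 and 916 in thymus Treg, against 402, 265 and 426 in thymus Tconv. All 3 Treg arrays lay above every other array of the study. The difference was 2.91-fold (log2 1.54 ± 0.21; adjusted p = 0.000176), and it was 1.89, 1.63 and 1.11 within the replicate pairs, the smallest in the pair of thymus Treg replicate 3. In fat Tpi1 read 296, 284 and 386 in Treg and 240.5, 256 and 300.4 in Tconv (0.27 ± 0.21), and in lymph node 315, 267 and 272 and 219.6, 209.5 and 186 (0.47 ± 0.21; adjusted p = 0.366), with no overlap in lymph node. The interaction between thymus and lymph node was 1.07 ± 0.30 (adjusted p = 0.274, and 0.0203 with the replicate block). The other 2 probe sets gave 1.63 and 1.78 in the thymus.

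Aldolase splits fructose bisphosphate. Aldoa (chr7:126795234-126800994) read 2629.8, 2889 and 2941 in fat Treg, against 1779.7, 2327 and 1805 in lymph node Treg, with no overlap, a 1.45-fold difference (0.54 ± 0.16; adjusted p = 0.0159). Its call was lost without lymph node Treg replicate 1 (0.0591) or 3 (0.0636) or fat Treg replicate 3 (0.0578). In Tconv fat and lymph node overlapped, at 1854, 2433 and 1873 and 2019, 2587 and 2279 (-0.13 ± 0.16). Between fat Treg and fat Tconv the difference was 0.47 ± 0.16 (adjusted p = 0.0727, and 0.016 with the replicate block, 0.027 on the deposited scale and 0.0349 without fat Tconv replicate 2), and the interaction between fat and lymph node was 0.69 ± 0.23 (adjusted p = 0.107, and 0.0223 with the block). The further 4 probe sets of Aldoa gave 0.56 to 0.81 between fat and lymph node Treg. Aldoc, the form known from brain (chr11:78323073-78327781), read 93.1, 83.9 and 115 in fat Treg, against 57.4, 76.9 and 67.1 in fat Tconv. The groups did not overlap, and the 1.45-fold difference was called (0.53 ± 0.16; adjusted p = 0.032). The call was lost without fat Treg replicate 1 (0.0646) or 3 (0.173), without fat Tconv replicate 1 (0.115) or 3 (0.0813), with the arrays centred on their medians (0.0551) and with only the fat arrays (0.104). The difference was 0.52 ± 0.16 in the thymus (adjusted p = 0.0662, and 0.0238 with the block) and 0.37 ± 0.16 in lymph node (adjusted p = 0.304), and no array overlapped there either.

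Phosphofructokinase commits sugar to glycolysis and has 3 forms. Pfkp, its platelet form (chr13:6579874-6649060), read 1080.3, 1144 and 1091 in fat Tconv, against 581, 723 and 784 in lymph node Tconv, with no overlap, a 1.64-fold difference (0.72 ± 0.18; adjusted p = 0.0091). In Treg the difference was 0.39 ± 0.18 (adjusted p = 0.11, and 0.0168 with the run block). Between Treg and Tconv Pfkp had -0.33 ± 0.18 in fat and -0.46 ± 0.18 in the thymus (adjusted p = 0.327 and 0.209, and 0.0397 and 0.0131 with the replicate block), and -0.65 (adjusted p = 0.0343) in the thymus without thymus Treg replicate 3. The liver form Pfkl had 0.25 in fat and 0.46 in the thymus (adjusted p = 0.195, and 0.0483 with the block), or 0.63 (adjusted p = 0.0484) without that replicate, and the muscle form Pfkm 0.04, 0.07 and 0.00 in fat, thymus and lymph node. Pfkfb3, whose product makes the activator of phosphofructokinase, read 234, 140.0 and 169 in thymus Treg and 116, 102 and 139 in thymus Tconv (0.58 ± 0.18; adjusted p = 0.0729, and 0.0266 with the block), and had -0.41 ± 0.18 in fat (adjusted p = 0.178). Without thymus Treg replicate 2 the thymus difference was 0.75 (adjusted p = 0.0244), and without fat Tconv replicate 1 the fat one was -0.58 (adjusted p = 0.0459).

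In lower glycolysis Pgam1, the phosphoglycerate mutase (chr19:41911871-41918665), had the pattern of Tpi1. It read 1956, 1473 and 1264 in thymus Treg, against 975, 594 and 1016 in thymus Tconv, with no overlap, a 1.84-fold difference (0.88 ± 0.19; adjusted p = 0.00765). The call was lost without thymus Treg replicate 1 (0.0522) and when the fit held the thymus arrays alone (0.147), and the pair of replicate 3 had 0.32 where the others had 1.00 and 1.31. In fat it read 616, 573 and 559 in Treg and 554, 596 and 562 in Tconv (0.03 ± 0.19), and in lymph node 736, 781 and 716 and 546, 688 and 547 (0.33 ± 0.19; adjusted p = 0.573). Both genes had their highest mean in thymus Treg, and so had the cell division sum, which was low in thymus Treg replicate 3. Its part in these results was not tested.

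Pkm, pyruvate kinase of muscle and most dividing cells (chr9:59656576-59679372), read 866, 724 and 871 in fat Treg, against 524, 351 and 572 in fat Tconv. The groups did not overlap and differed 1.73-fold (0.79 ± 0.20; adjusted p = 0.0139). All 3 pairs had one sign (0.72, 1.05 and 0.61). The call was lost without fat Treg replicate 1 (0.053) or 3 (0.0574) or without fat Tconv replicate 2 (0.0915). In the thymus the difference was -0.14 ± 0.20 and in lymph node 0.10 ± 0.20, and the interaction between fat and lymph node was 0.69 ± 0.29 (adjusted p = 0.246, and 0.0189 with the replicate block).

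Bpgm makes 2,3-bisphosphoglycerate, and its product is known above all from red cells (chr6:34476356-34505136). It read 1629, 1055 and 1571 in fat Treg, against 741, 549 and 459 in lymph node Treg, with no overlap, a 2.45-fold difference (1.29 ± 0.25; adjusted p = 0.00055). In Tconv fat and lymph node overlapped, at 1152, 815 and 1468 and 1003, 693 and 729 (0.52 ± 0.25; adjusted p = 0.146, and 0.0263 with the run block). Red cell markers, 3 of 5 with a probe set, summed to 461 to 876 in fat Treg and 405 to 663 in fat Tconv, against 113 to 153 in the other groups. Alas2, an enzyme of haem synthesis in red cell precursors was the one that differed (510 ± 232 in fat Treg and 425 ± 125 in fat Tconv, against 34.0 ± 5.89 in lymph node Treg and 35.2 ± 5.95 in lymph node Tconv), while the haemoglobin gene Hba-a1 was at 20.3 to 30.3 on every array. The part of red cells in the Bpgm result was not tested. The other 2 probe sets gave 0.92 and 0.23 between fat and lymph node Treg, and 0.26 and -0.42 between fat and lymph node Tconv. The interaction of Bpgm between fat and lymph node was 0.80 ± 0.35 (adjusted p = 0.275, and 0.0129 with the replicate block), and in lymph node Treg Bpgm had -0.48 ± 0.25 against Tconv (adjusted p = 0.497, and 0.039 with the block).

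**Figure D5:**
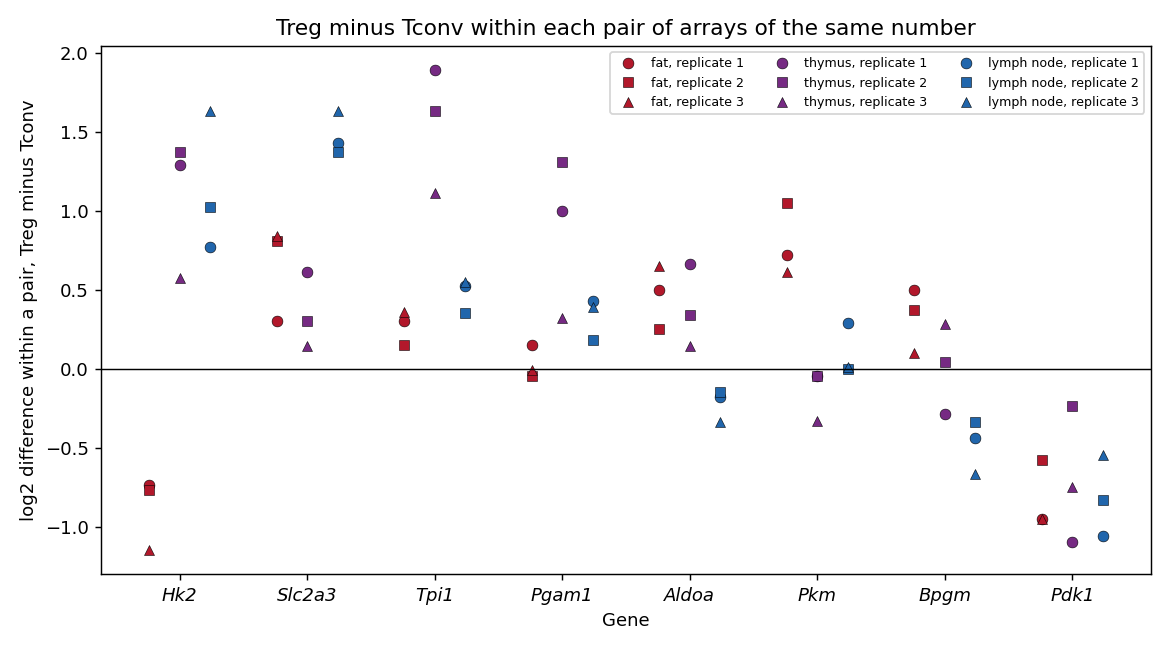
Log2 difference between Treg and Tconv (vertical axis) within each pair of arrays of the same number, for 8 genes (horizontal axis) and 3 tissues, with a symbol per replicate. The 3 fat pairs of Hk2 lie below 0 and its thymus and lymph node pairs above, and all 9 pairs of Pdk1 lie below 0.

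Gapdh, which oxidises glyceraldehyde phosphate, was represented by the array's own 3′ control probe set. It read 3878, 3509.8 and 4022 in fat Tconv, against 3014, 2784 and 2187 in lymph node Tconv, with no overlap, a 1.48-fold difference (0.56 ± 0.15; adjusted p = 0.013). The call was lost without lymph node Tconv replicate 3 (0.0937), without fat Tconv replicate 3 (0.0567) and with the mean of its 3 probe sets (0.277). The log2 ratio of the 3′ to the 5′ probe set, a sign of RNA quality and of amplification, was 3.14 to 3.71 in fat Tconv and 2.57 to 3.40 in lymph node Tconv, and the 5′ probe set gave a difference of 0.16 where the 3′ one gave 0.53 before centring. In the thymus Gapdh had 0.46 ± 0.15 between Treg and Tconv (adjusted p = 0.1, and 0.0101 with the block), with no overlap. Pgk1, the first step that yields ATP, was not called in any comparison, and its differences between Treg and Tconv were -0.01 in fat, 0.20 in the thymus and 0.14 in lymph node.

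Of the lactate dehydrogenase subunits, Ldha, which favours lactate formation, was not called in any comparison and had group means of 4251 to 6800. Its arrays read 6832, 7057 and 6509 in thymus Treg and 4498, 5086 and 4918 in lymph node Treg, and the difference between Treg and Tconv was -0.06 ± 0.11 in fat, 0.08 ± 0.11 in the thymus and -0.11 ± 0.11 in lymph node. Ldhb, the subunit known from heart (chr6:142490249-142507957), read 317, 236 and 324 in fat Treg, against 563, 628 and 458 in lymph node Treg. The groups did not overlap, and Ldhb was 1.87-fold lower in fat (-0.90 ± 0.23; adjusted p = 0.00551). Its other 3 probe sets gave -0.42 to -1.51. In Tconv the difference was -0.30 ± 0.23 (adjusted p = 0.397).

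At the entry to mitochondria Pdha1, the catalytic subunit gene of pyruvate dehydrogenase (chrX:160122219-160138430), read 2666, 3096 and 2864 in fat Treg, against 3669.5, 3467 and 4176 in lymph node Treg. The groups did not overlap and Pdha1 was 1.30-fold lower in fat (-0.38 ± 0.11; adjusted p = 0.0142). This small change was lost on the deposited scale (0.0857), with the arrays centred on their medians (0.131), with only the arrays of the comparison (0.0594), without fat Treg replicate 1 (0.0631) and with the mean of its probe sets (0.721), and its other probe set gave 0.23. Pdhb and Dlat, which encode further subunits of the complex, were not called in any comparison. Dlat had 0.41 ± 0.16 between fat and lymph node Tconv (adjusted p = 0.0748, and 0.0416 with the run block and 0.036 without lymph node Tconv replicate 3). Its other probe sets gave -0.03 and -0.17 there.

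Pdk1, which encodes a kinase that inhibits the complex (chr2:71873215-71903858), had the widest range of the 28 genes. It read 1372, 1924 and 1456 in fat Treg, against 2644, 2874 and 2810.4 in fat Tconv, and 240.0, 585 and 235 in thymus Treg, against 515, 693 and 395 in thymus Tconv. In lymph node it read 2351, 2187 and 2678 in Treg, against 4918, 3886 and 3922 in Tconv. The Treg arrays were the low ones in each tissue, without overlap in fat and lymph node. The difference was -0.82 ± 0.28 in fat, -0.70 ± 0.28 in the thymus and -0.81 ± 0.28 in lymph node, which did not pass the test (adjusted p = 0.0629, 0.194 and 0.138) but did with the replicate block (0.00222, 0.0118 and 0.00532). All 9 pairs had one sign, from -1.10 to -0.24. Without thymus Treg replicate 2, the highest of its group, the thymus difference was -1.13 (adjusted p = 0.00327). The other 3 probe sets of Pdk1 gave -0.96 to -0.66 in fat, -0.71 to -0.57 in the thymus and -1.19 to -1.02 in lymph node. Between fat and lymph node the probe set used gave -0.60 in Treg and -0.56 in Tconv. These were not called with all groups in the fit, and were called with the run block (adjusted p = 0.0116 and 0.0227), with only the compared groups (0.0199 and 0.035) and with the mean of the probe sets (-1.61 and -1.80; 6.81e-06 and 4.85e-06). The others gave -2.46 to -1.28 in Treg and -2.74 to -1.42 in Tconv, so that the size of the fall depended on the probe set.

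The 5 pentose phosphate genes measured, Pgls, Pgd, Rpia, Tkt and Taldo1, were not called with all groups in the fit and no block. Tkt, the transketolase that links the branch back to glycolysis, read 2959, 4704 and 1435 in thymus Treg, where replicate 3 was again the low array, and 2077, 2199.8 and 1368 in thymus Tconv. Its difference was 0.56 ± 0.31 (adjusted p = 0.415), 1.02 (adjusted p = 0.0126) without replicate 3 and called with the replicate block (0.0398). Tkt was lower in fat than in lymph node Treg on every array, at 1478, 1573 and 1319 and 2036, 2361 and 2507 (-0.65 ± 0.31; adjusted p = 0.111), and was called with the run block (0.00747) and with only these groups (0.00706). Its other probe sets gave smaller differences, -0.13 and, for a dim one, -0.19. Pgd, the NADPH-yielding dehydrogenase, had -0.47 ± 0.20 (adjusted p = 0.0851) and was called with the run block (0.022), with only these groups (0.0211), on the deposited scale (0.0283) and with median centring (0.0416). Its other probe sets gave -0.41, -0.29 and 0.01 in this comparison. Rpia, the ribose phosphate isomerase, had -0.27 ± 0.15 there. Taldo1, the transaldolase, had 0.11 to 0.25 between Treg and Tconv of the 3 tissues, and Pgls, the lactonase, -0.14 to 0.30.

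Thymus and lymph node are compared by levels alone, with folds, as above, taken from mean log2 intensities. Pdk1 had a mean of 353 ± 201 in thymus Treg and 2405 ± 249.6 in lymph node Treg (SD, n = 3 each), 7.48-fold apart, and of 534 ± 150.0 in thymus Tconv and 4242 ± 586 in lymph node Tconv, 8.10-fold apart. Tpi1 was 3.66-fold higher in thymus than in lymph node Treg and 1.75-fold higher in Tconv, Slc16a1 2.31-fold and 2.17-fold. Of the 28 genes 10 lay higher on every thymus Treg array than on every lymph node Treg array and 3 lower (Pdk1, Slc2a3 and Rpia), where 12.0% of all genes lay higher and 12.5% lower. In Tconv 12 lay higher and 5 lower (Pdk1, Slc2a1, Hk1, Aldoa and Rpia), where 14.5% and 13.5% of all genes did. Gapdh, Pgk1, Ldha, Pfkm, Tpi1, Slc16a1 and Taldo1 were among the higher genes in both cell types, and Slc2a3 was lower in thymus Treg (1.77-fold) and higher in thymus Tconv (1.23-fold).

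Other genes of sugar use were read from lists of related genes. Among 11 tested genes of a list of isozymes and sugar transporters the enolase genes Eno3 and Eno2 were higher in Treg. Eno3 had 2.18 ± 0.32 in the thymus (781 ± 297 in Treg and 168 ± 47.1 in Tconv; adjusted p = 0.000294) and 1.34 ± 0.32 in lymph node (263 ± 43.8 and 106 ± 27.6; adjusted p = 0.0176). Eno2 had 0.78 ± 0.21 in fat, 1.70 ± 0.21 in the thymus and 0.94 ± 0.21 in lymph node (adjusted p = 0.0168, 4.39e-05 and 0.0101). Slc2a9, a urate transporter of the Glut family, was lower in thymus Treg (-0.82). In fat against lymph node Treg, Hk3 (0.52) and Slc2a9 (0.50; adjusted p = 0.0304) were higher and Eno3 (-2.13) and Pgam5 (-0.87) lower, and in Tconv Slc2a8 (0.50) was higher. So 1 gene of the 11 was called in fat (9.09%, against 12.8% of all genes), 3 in the thymus (27.3%, against 5.67%) and 2 in lymph node (18.2%, against 4.68%). These shares and those that follow are of the list, which holds Slc2a9 and Pgam5, and not of glycolytic isozymes alone. Set against lymph node, fat had 4 calls in Treg (36.4%, against 35.6%) and 1 in Tconv (9.09%, against 23.4%). Replicates are named by their number where leaving 1 out ended a call. Eno3 lost its call in lymph node without lymph node Treg 2 or lymph node Tconv 3 (adjusted p = 0.0931 to 0.118), and Eno2 in lymph node without lymph node Tconv 1 (adjusted p = 0.0601). Eno2 lost its call in fat without fat Treg 1 or 3 or fat Tconv 1 (adjusted p = 0.0649 to 0.0696), and Slc2a9 between fat and lymph node Treg without fat Treg 2 or 3 or lymph node Treg 1 or 2 (adjusted p = 0.0803 to 0.103). Pgam5 lost its call between fat and lymph node Treg without fat Treg 1 or 2 or lymph node Treg 1 or 2 (adjusted p = 0.0582 to 0.0947), and Slc2a8 between fat and lymph node Tconv without fat Tconv 1 or 3 or lymph node Tconv 2 or 3 (adjusted p = 0.0659 to 0.138). With the mean of a gene's probe sets calls were lost of Hk3 between fat and lymph node Treg (0.25; adjusted p = 0.147) and Slc2a9 between fat and lymph node Treg (0.17; adjusted p = 0.324). Other settings ended the calls of Slc2a9 in the thymus with only the compared groups (adjusted p = 0.0729), Slc2a9 between fat and lymph node Treg on the deposited scale and with median centring (adjusted p = 0.0769 to 0.0893) and Slc2a8 between fat and lymph node Tconv with only the compared groups (adjusted p = 0.0938).

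Of 19 side branch genes 2 were called in fat (10.5%, against 12.8% of all genes), 1 in the thymus (5.26%, against 5.67%) and 2 in lymph node (10.5%, against 4.68%). Fat and lymph node gave 4 calls in each cell type (21.1%, against 35.6% of all genes in Treg and 23.4% in Tconv). Tktl1, a transketolase-like gene, had 300 ± 89.4 in fat Treg and 64.9 ± 4.15 in lymph node Treg, a log2 difference of 2.18 ± 0.31, and 302 ± 80.8 in fat Tconv and 29.8 ± 7.30 in lymph node Tconv (3.37 ± 0.31). It was also higher in lymph node Treg than Tconv (1.15; adjusted p = 0.0424). Gpd2, the mitochondrial glycerol phosphate dehydrogenase, was lower in Treg of thymus (-0.71) and lymph node (-0.80) and not in fat, where the means were 724 ± 90.6 in Treg and 646 ± 102 in Tconv. Its interaction between fat and lymph node was 0.96 ± 0.25 (adjusted p = 0.0257), and Gpd2 was higher in fat than in lymph node Treg (0.95). Tigar, a phosphatase that opposes glycolysis, was lower in fat Treg (-0.78) and Rpe, the ribulose phosphate epimerase, higher (0.69). Between fat and lymph node Rpe was higher in Treg (0.51), Prps1 (0.59) and the glycogen phosphorylase Pygb (0.58) higher in Tconv, and Prps2 lower in both (-0.83 and -0.63). Tktl1 lost its call in lymph node without lymph node Treg 1, 2 or 3 or lymph node Tconv 2 or 3 (adjusted p = 0.0954 to 0.21), and Gpd2 in lymph node without lymph node Treg 2 (adjusted p = 0.0542). Gpd2 lost its call in the thymus without thymus Treg 1 or thymus Tconv 2 or 3 (adjusted p = 0.0803 to 0.111), and Pygb between fat and lymph node Tconv without fat Tconv 2 or lymph node Tconv 1 (adjusted p = 0.0653 to 0.0828). Gpd2 lost its call as an interaction without fat Treg 1, fat Tconv 2 or 3, lymph node Treg 1 or 2 or lymph node Tconv 1 or 2 (adjusted p = 0.0548 to 0.0736). With the mean of a gene's probe sets calls were lost of Tktl1 in lymph node (0.51; adjusted p = 0.152), Rpe in fat (0.02; adjusted p = 0.941), Tigar in fat (-0.37; adjusted p = 0.0833), Rpe between fat and lymph node Treg (0.00; adjusted p = 0.991) and Gpd2 as an interaction (0.63; adjusted p = 0.0599). It gave smaller differences that were still called for Tktl1 (1.99) between fat and lymph node Tconv. Other settings ended the calls of Tktl1 in lymph node on the deposited scale, with median centring, with no filter on dim genes and with the run block (adjusted p = 0.0534 to 0.0801), Gpd2 in the thymus with only the compared groups (adjusted p = 0.128), Rpe between fat and lymph node Treg on the deposited scale and with median centring (adjusted p = 0.0778 to 0.0826), Pygb between fat and lymph node Tconv with only the compared groups (adjusted p = 0.0538) and Gpd2 as an interaction with median centring (adjusted p = 0.0589).

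Around mitochondria 1 of 22 genes was called in fat (4.55%, against 12.8% of all genes) and none in thymus or lymph node by limma's test, where 5.67% and 4.68% of all genes were (2 and 1 of the 22 at an unadjusted p under 0.05). Fat differed from lymph node for 7 of them in Treg (31.8%, against 35.6%) and 4 in Tconv (18.2%, against 23.4%). Got1, the cytosolic aspartate aminotransferase of the malate shuttle, had 2348 ± 103 in fat Treg and 1164 ± 562 in fat Tconv (1.13 ± 0.28; adjusted p = 0.0103), against 191 ± 23.3 in lymph node Treg and 166 ± 41.2 in lymph node Tconv (3.63 ± 0.28 and 2.75 ± 0.28 between the tissues). Pdp1, the phosphatase that reverses Pdk1 on pyruvate dehydrogenase, was higher in fat by 1.11 ± 0.17 in Treg and 1.05 ± 0.17 in Tconv. Idh3a was higher in fat (0.48 in Treg and 0.78 in Tconv), and Pdhx (-0.74), Fh1 (-0.63) and Sdha (-0.56) were lower in fat Treg and Suclg1 (-0.48) in fat Tconv. Got1 lost its call in fat without fat Tconv 2 (adjusted p = 0.0576), and Idh3a between fat and lymph node Treg without fat Treg 1 or 3 or lymph node Treg 2 or 3 (adjusted p = 0.112 to 0.194). Pdhx lost its call between fat and lymph node Treg without fat Treg 1 or 2 or lymph node Treg 1 or 2 (adjusted p = 0.0851 to 0.15), and Sdha between fat and lymph node Treg without lymph node Treg 3 (adjusted p = 0.0535). With the mean of a gene's probe sets calls were lost of Pdp1 between fat and lymph node Treg (0.42; adjusted p = 0.0714), Idh3a between fat and lymph node Treg (0.08; adjusted p = 0.703) and Idh3a between fat and lymph node Tconv (0.11; adjusted p = 0.657). It gave smaller differences that were still called for Sdha (-0.31) between fat and lymph node Treg and Pdp1 (0.50) between fat and lymph node Tconv. Other settings ended the calls of Got1 in fat with only the compared groups (adjusted p = 0.0701), Idh3a between fat and lymph node Treg on the deposited scale, with median centring, with no filter on dim genes and with only the compared groups (adjusted p = 0.0581 to 0.169), Pdhx between fat and lymph node Treg with median centring (adjusted p = 0.0659) and Suclg1 between fat and lymph node Tconv with only the compared groups (adjusted p = 0.0503).

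Of 32 tested regulators of glycolytic genes 7 were called in fat (21.9%, against 12.8% of all genes), 2 in the thymus (6.25%, against 5.67%) and 2 in lymph node (6.25%, against 4.68%). Of these 14 were called between fat and lymph node in Treg (43.8%, against 35.6%) and 7 in Tconv (21.9%, against 23.4%). Egln3, a prolyl hydroxylase that marks HIF proteins for destruction, had 1974 ± 178 in fat Treg and 177 ± 18.1 in fat Tconv (3.48 ± 0.30; adjusted p = 2.39e-07), against 115 ± 12.4 in lymph node Treg and 137 ± 48.0 in lymph node Tconv, and its interaction was 3.67 ± 0.42 (adjusted p = 2.4e-05). Epas1, which encodes HIF-2 alpha, had 90.1 ± 19.6 in lymph node Treg and 519 ± 124 in lymph node Tconv (-2.52 ± 0.35). In fat it had 1749 ± 1220 in Treg, a wide spread between pools, and 1536 ± 165 in Tconv. It was higher in fat than in lymph node by 4.10 ± 0.35 in Treg and 1.63 ± 0.35 in Tconv. Its interaction was 2.50 ± 0.50 (adjusted p = 0.00437). Epas1 is also abundant in endothelial cells, fat cells and macrophages. The Myc antagonist Mxd1 was higher in Treg of fat (1.44) and thymus (1.42), and Mxi1, of the same family, higher in fat Treg (2.04) and fat Tconv (1.60) than in lymph node. Arrdc4, 1 of the genes of glucose sensing on this list, was higher in Treg of fat (0.85), thymus (0.64) and lymph node (0.76). It was higher in fat against lymph node Tconv too (1.47). Its mean was 61.2 in lymph node Treg, 36.2 in lymph node Tconv, 56.4 in thymus Treg and 36.25 in thymus Tconv. These means lay below the filter, which Arrdc4 passed only through fat Treg (179) and fat Tconv (97.0). Its thymus and lymph node calls are thus differences between signals below the filter. Its calls between fat and lymph node are partly fixed by the filter. Arrdc4 was also higher in fat against lymph node Treg (1.53), a value given after it was seen. Txnip of the same list, likewise given after it was seen, was called lower in that comparison (-0.76). The call of Txnip was lost in 5 of 6 fits that left out 1 array. It was also lost on the deposited scale (adjusted p = 0.116) and with median centring (0.145). Max (-0.79) was lower in fat Treg than Tconv, Sesn3 lower in fat in Treg (-1.54) and Tconv (-1.28), Mxd4 (-0.89) and Ddit4 (-0.81) lower in fat Treg, and Arnt (-0.46) lower in fat Tconv. Stk11 had an interaction of 0.80 ± 0.21 (adjusted p = 0.0303). Arrdc4 lost its call in lymph node without lymph node Treg 1 or 2 or lymph node Tconv 1 (adjusted p = 0.0612 to 0.0798), and Mxd1 in the thymus without thymus Tconv 2 (adjusted p = 0.0531). Arrdc4 lost its call in the thymus without any one of its 6 arrays (adjusted p = 0.0622 to 0.123), and Max in fat without fat Treg 2 or 3 or fat Tconv 1 (adjusted p = 0.0504 to 0.0732). Mxd4 lost its call between fat and lymph node Treg without any one of its 6 arrays (adjusted p = 0.0568 to 0.162), and Arnt between fat and lymph node Tconv without fat Tconv 1, 2 or 3 or lymph node Tconv 1 (adjusted p = 0.0672 to 0.159). Stk11 lost its call as an interaction without fat Treg 1 or 3, fat Tconv 1 or 2, lymph node Treg 2 or 3 or lymph node Tconv 1, 2 or 3 (adjusted p = 0.0505 to 0.0873). With the mean of a gene's probe sets calls were lost of Arrdc4 in the thymus (0.39; adjusted p = 0.0743), Mxd4 between fat and lymph node Treg (-0.23; adjusted p = 0.171), Sesn3 between fat and lymph node Tconv (-0.47; adjusted p = 0.0602), Arnt between fat and lymph node Tconv (0.08; adjusted p = 0.612), which turned sign, and Stk11 as an interaction (0.40; adjusted p = 0.147). It gave smaller differences that were still called for Epas1 (-1.42) in lymph node, Mxd1 (0.79) in the thymus, Mxd1 (0.85) in fat, Epas1 (2.19), Mxi1 (1.34) and Sesn3 (-0.91) between fat and lymph node Treg, Epas1 (0.84), Mxi1 (1.00) and Arrdc4 (0.70) between fat and lymph node Tconv and Epas1 (1.36) as an interaction. Other settings ended the calls of Max in fat with only the compared groups (adjusted p = 0.0754), Mxd4 between fat and lymph node Treg with no filter on dim genes and with the replicate block (adjusted p = 0.0525 to 0.0556), Arnt between fat and lymph node Tconv with median centring and with only the compared groups (adjusted p = 0.0561 to 0.0607) and Stk11 as an interaction on the deposited scale and with median centring (adjusted p = 0.106 to 0.166).

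Of 16 tested genes known to respond to hypoxia 4 were called in fat (25%, against 12.8% of all genes), 3 in the thymus (18.8%, against 5.67%) and 2 in lymph node (12.5%, against 4.68%). In fat against lymph node 7 were called in Treg (43.8%, against 35.6%) and 3 in Tconv (18.8%, against 23.4%). Ndrg1 had 3976 ± 520 in fat Treg and 641 ± 125 in fat Tconv (2.64 ± 0.21; adjusted p = 1.19e-07), and 546 ± 57.2 in lymph node Treg and 302 ± 8.80 in lymph node Tconv (0.85), with an interaction of 1.79 ± 0.30 (adjusted p = 0.001). Ero1a, an oxidase of the endoplasmic reticulum, had 2761 ± 88.3 in fat Treg and 1055 ± 225 in fat Tconv (1.41 ± 0.16) and an interaction of 1.34 ± 0.23 (adjusted p = 0.00129). Bhlhe40, a repressor that T cell activation also raises, turned its direction: it was higher in Treg of thymus (2.44) and lymph node (1.23) and lower in Treg of fat (-0.92), where it had 2006 ± 420 in Treg and 3808 ± 758 in Tconv (interaction -2.15 ± 0.39; adjusted p = 0.00212). Hk2 had the same change of sign. Bnip3 was higher in fat Treg (0.74), Mif higher in thymus Treg (0.95) and P4ha2 lower there (-0.95). P4ha2 passed the filter only through thymus Tconv (93.0 ± 21.0), with means of 43.6 to 63.5 in the other groups, so its call is partly fixed by the filter. Set against lymph node, Ndrg1 (2.87 and 1.11), Bhlhe40 (2.31 and 4.49) and Adm (2.30 and 2.20) were higher in Treg and Tconv of fat, and P4ha1 (-0.86), Car12 (-0.69) and Mif (-0.66) lower in Treg. Adm varied widely between fat pools, with 526 ± 322 in fat Treg and 519 ± 399 in fat Tconv. Bhlhe40 lost its call in lymph node without lymph node Treg 3 or lymph node Tconv 1 (adjusted p = 0.081 to 0.083), and Ndrg1 in lymph node without any one of its 6 arrays (adjusted p = 0.0538 to 0.12). Mif lost its call in the thymus without thymus Treg 1 or 2 or thymus Tconv 2 or 3 (adjusted p = 0.0644 to 0.0997), and P4ha2 in the thymus without thymus Tconv 3 (adjusted p = 0.0786). Bnip3 lost its call in fat without fat Treg 1 or fat Tconv 2 or 3 (adjusted p = 0.0552 to 0.11), and Bhlhe40 in fat without fat Treg 2 or 3 or fat Tconv 1 or 3 (adjusted p = 0.0983 to 0.126). Mif lost its call between fat and lymph node Treg without fat Treg 1, 2 or 3 or lymph node Treg 1 or 2 (adjusted p = 0.0544 to 0.167). With the mean of a gene's probe sets calls were lost of Ndrg1 in lymph node (0.44; adjusted p = 0.201) and Mif in the thymus (0.30; adjusted p = 0.175). It gave smaller differences that were still called for P4ha1 (-0.43) and Mif (-0.41) between fat and lymph node Treg and Ndrg1 (0.62) between fat and lymph node Tconv. Other settings ended the calls of Bhlhe40 in lymph node with only the compared groups (adjusted p = 0.0672), Mif in the thymus with only the compared groups (adjusted p = 0.0991), P4ha2 in the thymus with only the compared groups (adjusted p = 0.075) and Bnip3 in fat with only the compared groups (adjusted p = 0.0988). These lists were drawn up with results of these arrays already known.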

How the data were processed

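RNA of sorted CD4 T cells was amplified in 2 rounds and hybridised to Affymetrix M430v2 arrays. The deposited values are linear intensity after RMA, per the series' design text, and which arrays RMA took together is not given in the sources used here. The fat arrays' medians were 76.9 to 82.2 and those of the other 12 arrays 57.9 to 63.0, so the 18 arrays were brought to one scale. The intensity values deposited by the authors were put on a log2 scale and quantile normalised, and intensities given here are on that scale.

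Of 45101 probe sets 34958 named 1 gene symbol, 932 several and 9211 none. A gene was tested where at least 1 of 6 group means lay above log2 6.03 (intensity 65.5), the median of all values. limma 3.58.1 in R 4.3.3 fitted the 6 groups together (lmFit and eBayes, 12 residual and 4.83 prior degrees of freedom), with Benjamini-Hochberg adjustment over 12274 genes. Fat against lymph node was read relative to the median change. The number of arrays, 3 per group, limits the precision, and levels of different probe sets are not compared.

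Treg and Tconv arrays of the same number in a tissue, which also share a run of scan numbers in the labels, deviated together from their group means (correlations 0.37 to 0.66 in 9 pairs, and -0.52 to 0.19 in the 18 other combinations), so the number was added as a block as an alternative. Other alternatives were the deposited scale, median centring, no filter, the mean of a gene's probe sets, the compared groups alone, the run as a block, and leaving out each array. On simulated data of lymph node with 200 changed genes of 12274, differences of log2 1 and 2 were tested to see whether the fit recovered them. Named members are those called between Treg and Tconv or in an interaction, the largest calls between fat and lymph node, and up to 3 called genes in each direction of each pathway list. The members and the lists of genes and markers were chosen with earlier results of these data known.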

Additional observations from a re-analysis of the deposited data

Results flagged for a closer look

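The Treg effect, Treg minus Tconv on the log2 scale, differed between tissues by the test of the interaction for 2 of the sugar pathway genes. For Hk2 the effect in fat minus that in lymph node was -2.03. For Slc2a3 it was -0.82 between fat and lymph node and -1.12 between thymus and lymph node.

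Among the related genes the fat minus lymph node difference of the Treg effect was 3.67 for Egln3, 2.50 for Epas1, 1.79 for Ndrg1, 1.34 for Ero1a, 0.96 for Gpd2, 0.80 for Stk11 and -2.15 for Bhlhe40. No formal test of single outlying arrays was made, since each group has 3.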

How the results depend on the processing

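Of 160 alternative values for the 23 calls of sugar pathway genes, 144 kept the call, and all 23 kept it with the replicate block and with the run block. The 160 do not hold the fits that left out 1 array, which ended further calls. Those fits ended the call of Hk2 in the thymus in 5 of 6 and that of Aldoc in fat in 4 of 6. For Tpi1 in the thymus they ended 0 of 6. On the deposited scale 1 gene was called lower in the interaction of fat and lymph node. With each array centred on its median 1 was lower there and 0 in that of thymus and lymph node. Without the filter 0 were lower in fat Treg. With the mean of all probe sets of a gene 1 was lower in lymph node Treg, 2 in fat Treg and 1 in fat against lymph node Tconv, 5 were higher in fat against lymph node Treg, and 1 and 0 were lower in the interactions of fat and of thymus with lymph node. With only the compared groups 1 was lower in lymph node Treg, 1 higher in fat Treg, 6 lower in fat against lymph node Treg and 1 lower in Tconv, and 420 genes in all were called in the thymus. Between fat and lymph node 4496 genes in all were then called in Treg and 2309 in Tconv. For the other counts of genes in this paragraph the number of all genes called is not given. Those counts are therefore not set against a shift in the calls of all genes.

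With the replicate block, which pairs Treg and Tconv arrays, 3 genes were lower in fat Treg, 8 higher and 2 lower in thymus Treg, and 2 lower in lymph node Treg, among 2844, 1672 and 1098 genes called in all. In the interactions 3 were higher for fat and 1 for thymus, among 1462 and 138. Replicate numbers did not pair fat with lymph node, where arrays of the same number but another run correlated at -0.43 to -0.13 and those of the same run but another number at 0.09 to 0.40. With the run block 2 genes were lower in fat Treg, 7 higher and 2 lower in thymus Treg and 1 lower in lymph node Treg, with 1311 genes called in the thymus and 865 in lymph node. Between fat and lymph node 6 were then higher and 7 lower in Treg and 8 higher and 1 lower in Tconv, among 5661 and 4049 genes called in all, and in the interactions 3 were higher for fat and 1 for thymus, among 1089 and 74 genes.

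Leaving out each array in turn gave 1 to 3 genes higher and 0 to 1 lower in fat Treg (1213 to 1696 genes in all), 1 to 6 higher and 0 to 1 lower in thymus Treg (472 to 1103), and 1 to 2 higher and 0 lower in lymph node Treg (405 to 460). Between fat and lymph node it gave 2 to 4 higher and 2 to 3 lower in Treg (3473 to 4208) and 4 to 6 higher and 0 lower in Tconv (2109 to 2872). In the interactions it gave 2 lower for fat (527 to 758) and 0 to 1 lower for thymus (19 to 64), and 0 higher in both. Of 94 calls of list genes 31 were lost or turned in at least 1 other setting, 18 of the 54 changed values with the mean of all probe sets. Arnt turned to 0.08 between fat and lymph node Tconv under that setting. The cause was not tested.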
